A study of Mus musculus with 2 samples.

Results

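The 3 uncoupling protein genes Ucp1, Ucp2 and Ucp3 were followed in mouse interscapular brown adipose tissue (iBAT), a depot of thermogenic fat. They were chosen by name, as the rows whose gene symbol is Ucp1, Ucp2 or Ucp3, and all 3 were present among the 27179 genes of both count tables. There was 1 RNA-seq library of untreated wild-type Bl6N mice and 1 of untreated Ucp1-KO Bl6N mice, in which both copies of Ucp1 are described as deleted. The series describes all animals as males of 20 days, and each library was made from the pooled tissue of 3 animals. A pool gives no spread between animals, the knockout allele and the exons it lacks are not given in the sources used here, and no rescue or second allele was included. Every difference below is therefore one between 2 libraries, with counting error only and no test.

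Uncoupling proteins are carriers of the inner mitochondrial membrane and belong to the large solute carrier family Slc25. UCP1 lets protons return to the matrix without making ATP, so that the energy of the gradient is released as heat, and in brown adipocytes it is opened by fatty acids that noradrenaline frees from lipid droplets. UCP2 is found in many tissues and is abundant in macrophages and other immune cells, and UCP3 is found mainly in skeletal muscle and brown fat, where its transcript follows the supply of fatty acids. Neither UCP2 nor UCP3 is known to replace UCP1 as a source of heat.

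The genes lie at 2 places of the mouse genome build GRCm39. Ucp1 (Entrez gene 22227) spans chr8:84016647-84025085 on the plus strand, with 6 exons in its canonical transcript. Ucp3 (Entrez gene 22229) at chr7:100122136-100135976 and Ucp2 (Entrez gene 22228) at chr7:100142055-100151227 are direct neighbours on the plus strand, 6078 bases apart, with 7 and 8 exons. Their coding parts are of nearly the same length, 924 bases for Ucp1, 930 for Ucp2 and 927 for Ucp3.

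The 250 bases before the RefSeq start of each gene are shown because the members differ in level and in the direction of their difference between the libraries. Capitals mark each match, on either strand, to 5 motifs. These were AGGTCA (the hexamer bound by nuclear receptors), TGACG (the core of the cyclic AMP response element), GGGCGG (the GC box) and the TATA box forms TATAAA and TATATA.
Ucp1, chr8:84016727-84016976, plus strand: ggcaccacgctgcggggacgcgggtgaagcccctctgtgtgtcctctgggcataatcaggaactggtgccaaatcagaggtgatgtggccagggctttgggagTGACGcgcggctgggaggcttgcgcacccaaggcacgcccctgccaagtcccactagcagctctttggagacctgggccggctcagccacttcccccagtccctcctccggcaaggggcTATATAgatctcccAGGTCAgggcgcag
Ucp2, chr7:100142315-100142564, plus strand: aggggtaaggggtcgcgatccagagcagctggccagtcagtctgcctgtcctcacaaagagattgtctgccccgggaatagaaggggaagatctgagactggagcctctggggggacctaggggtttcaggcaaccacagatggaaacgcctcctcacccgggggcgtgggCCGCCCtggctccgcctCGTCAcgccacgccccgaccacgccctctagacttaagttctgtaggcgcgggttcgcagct
Ucp3, chr7:100121948-100122197, plus strand: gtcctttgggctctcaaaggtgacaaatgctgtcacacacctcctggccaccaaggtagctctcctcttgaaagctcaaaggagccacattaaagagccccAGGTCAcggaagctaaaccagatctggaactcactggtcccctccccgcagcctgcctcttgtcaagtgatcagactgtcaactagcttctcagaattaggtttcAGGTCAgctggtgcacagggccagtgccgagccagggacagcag

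The stretches were taken from the RefSeq promoter table and placed in GRCm39 by an exact match. Their last 36 bases for Ucp1, 38 for Ucp2 and 62 for Ucp3 lie after the start that GENCODE gives the canonical transcript. The Ucp1 stretch held TATATA starting 28 bases before the RefSeq start, AGGTCA at 14 bases and TGACG at 147 bases. Its TATATA and AGGTCA matches are thus within the 36 bases after the GENCODE start. The Ucp2 stretch held 1 GC box and 1 TGACG match, both written on the minus strand and so read in the printed line as CCGCCC and CGTCA, and neither TATA form. The Ucp3 stretch held AGGTCA at 149 and 44 bases before the RefSeq start, the latter within the 62 bases after the GENCODE start. It held none of the other 4 motifs. Among 27018 RefSeq promoters of the same length, 13.8% held AGGTCA, 17.9% TGACG, 32.9% GGGCGG, 13.0% TATAAA and 5.56% TATATA. The GC content was 64.8% for Ucp1, 63.6% for Ucp2 and 54.8% for Ucp3, against a median of 52.0% over all promoters, and the number of CG dinucleotides was 12, 16 and 3 against a median of 6. A match is a run of letters and was not examined for binding.

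Some facts of the libraries bear on all values. The wild-type table summed to 52950913 counts and the Ucp1-KO table to 53216727. All 14 adipocyte markers and all 18 brown adipocyte genes examined had counts in both libraries. All 25 skeletal muscle and all 12 endothelial markers also did, so having counts is no check of the tissue label. The sex-linked transcripts did not match an all-male description. The Y-linked genes Eif2s3y, Kdm5d, Uty and Ddx3y were at 0 in wild-type and had between 491 and 3446 counts in Ucp1-KO, and the X-linked Xist RNA had 32380 and 16478 counts. The skeletal muscle markers took 0.722% of counts in wild-type but 0.0940% in Ucp1-KO. The mitochondrial ribosomal RNA mt-Rnr2 had 366556 counts in wild-type but 1809408 in Ucp1-KO, a log2 ratio of 2.60, and its part in the results was not tested. Genotype, sex-linked transcripts and muscle transcripts thus differed together, and their parts cannot be told apart with 1 library per genotype. In bulk tissue, fewer cells of a type and less RNA per cell cannot be told apart either.

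Ucp1 was measured first because it is the targeted gene and so a check of the labels. In wild-type, 366473 counts fell on Ucp1, with a 95% Poisson interval, computed on read pairs, of 364797 to 368155. In Ucp1-KO, 37853 counts remained (37316 to 38396). After division by median-of-ratios size factors, the normalised counts were 330323 and 41996. The Ucp1-KO library was low, as its label says, but it was not at 0. It held 12.7% of the wild-type level, with a counting interval of 12.5% to 12.9%, which is a log2 ratio (log2 of Ucp1-KO over wild-type, with 0.5 added to each normalised count) of -2.98. Gene-level counts do not say which exons the remaining reads came from.

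The remaining Ucp1 was still an abundant transcript. By count it was the gene of rank 10 in the wild-type library, between mt-Rnr2 (366556 counts) and Rn45s (344420, the ribosomal RNA precursor). In the Ucp1-KO library it was of rank 107, between Chpt1 (37872 counts, an enzyme of phosphatidylcholine synthesis) and Eef2 (37588, a translation elongation factor). Neither of these Ucp1-KO neighbours differed from it by more than the counting interval. Its share of all counts was 0.692% in wild-type (exact binomial interval 0.689% to 0.695%) but 0.0711% in Ucp1-KO (0.0701% to 0.0722%).

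The difference in Ucp1 was not shared by genes of like level. Of the 78 other genes within 4-fold of its mean normalised count, none had a log2 ratio as low. Their lowest was -2.11, their median was 0.15, and the middle 50% ran from -0.21 to 0.36. Of the 11768 genes whose mean normalised count reached 100, 41, Ucp1 among them, had a log2 ratio at or under -2.98, and 6 of these were skeletal muscle markers. The genes whose log2 ratio over the 2 libraries was nearest to that of Ucp1 were Cyp2b10 (-2.99, an inducible cytochrome P450), Dhrs7c (-2.99, a dehydrogenase of the sarcoplasmic reticulum) and Gm6277 (-2.96). With 2 libraries, such likeness is a single number per gene.

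**Figure D1:**
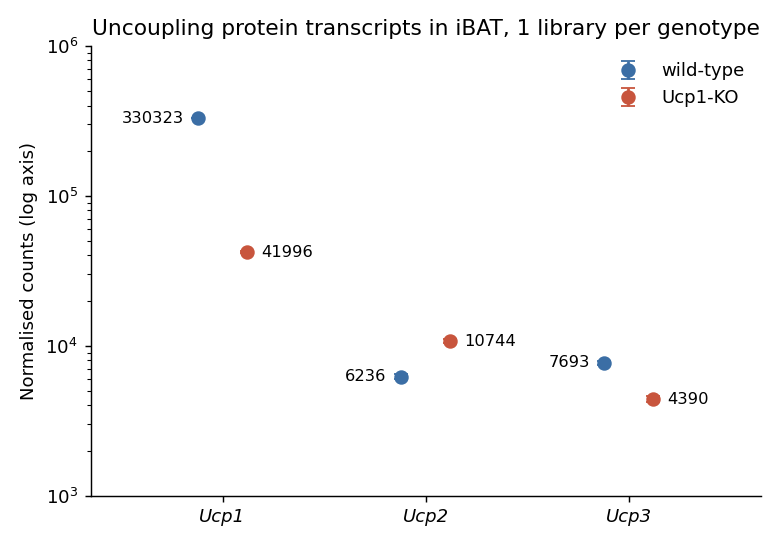
Normalised counts (log axis) of Ucp1, Ucp2 and Ucp3 in the wild-type library (blue) and the Ucp1-KO library (red), 1 point per library with its 95% Poisson counting interval, which is mostly smaller than the point. Ucp1 is at 330323 and 41996, Ucp2 at 6236 and 10744, and Ucp3 at 7693 and 4390.

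Ucp2 was higher in the Ucp1-KO library. Its count was 6918 in wild-type (6689 to 7152), against 9684 for Ucp1-KO (9413 to 9961), which is 6236 and 10744 normalised counts. The intervals of the normalised values did not overlap. That is a log2 ratio of 0.78 (counting interval 0.72 to 0.85), or a 1.72-fold higher level (1.65 to 1.80), and it did not reach the size rule of 2-fold. By count Ucp2 was of rank 1067 in wild-type, between Actr2 (6922, a subunit of the Arp2/3 complex) and Rpl35 (6916, a ribosomal protein), and of rank 579 in Ucp1-KO, next below Selenot (9687, a selenoprotein). None of these differed from it beyond the counting interval.

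Ucp3 was lower, in the opposite direction to its neighbour Ucp2. Its count was 8535 in wild-type (8281 to 8795), against 3957 for Ucp1-KO (3785 to 4135), or 7693 and 4390 normalised counts. The intervals again did not overlap. The Ucp1-KO level was 57.1% of that in wild-type (54.1% to 60.2%), a log2 ratio of -0.81 (-0.89 to -0.73), and the rank by count was 837 in wild-type, between Vcl (a focal adhesion protein) and Pald1 (8523), and 1744 in Ucp1-KO, between Ube2w (3960) and Khdc4 (3957). With total counts Ucp3 was at -1.12 and so past the 2-fold size rule, which it did not reach under the other 4 scalings.

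Of the 3 members, Ucp1 alone passed the 2-fold rule, against 17.0% of the 15212 genes whose mean normalised count reached 10, of which 7.42% were higher and 9.55% lower in Ucp1-KO. Differences of the size seen in Ucp2 and Ucp3 were found in many genes. Among 3620 other genes within 4-fold of the level of Ucp2, 181 had a log2 ratio as high or higher. Among 4785 within 4-fold of the level of Ucp3, 212 had one as low or lower. The nearest log2 ratios at a mean of at least 100 were those of Zfp948 (0.78), Ube2w (0.79, a ubiquitin-conjugating enzyme) and Bbs12 (0.78, a chaperonin-like protein of the cilium) for Ucp2. For Ucp3 they included those of Jph1 (-0.81, a junctophilin of skeletal muscle) and Fbxo5 (-0.81, a cell cycle inhibitor of ubiquitination).

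**Figure D2:**
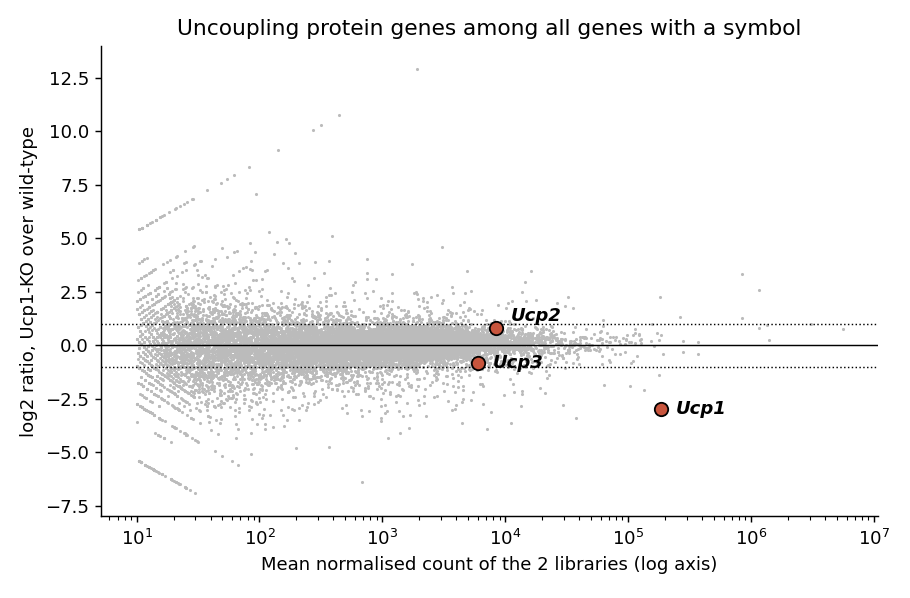
The log2 ratio of Ucp1-KO over wild-type against the mean normalised count of the 2 libraries (log axis) for each gene with a symbol and a mean of 10 or more, 1 grey point per gene, with Ucp1, Ucp2 and Ucp3 in red and the 2-fold rule as dotted lines. Ucp1 at -2.98 lies below every gene of like level, whereas Ucp2 (0.78) and Ucp3 (-0.81) lie inside the dotted lines.

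The make-up of the family could be read within each library, where the scaling between libraries plays no part. In wild-type, Ucp1 made up 96.0% of the summed counts of the 3 genes (exact binomial interval 95.9% to 96.0%), Ucp2 1.81% and Ucp3 2.23%. In Ucp1-KO, Ucp1 still made up 73.5% (73.0% to 74.0%), Ucp2 18.8% and Ucp3 7.68%. The targeted gene thus remained the most counted of the 3 in the library of the knockout. Ucp1 had 42.9 counts for each count of Ucp3 in wild-type (41.7 to 44.3), against 9.57 in Ucp1-KO.

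The order of the paralogs changed between the libraries. The ratio of Ucp2 to Ucp3 counts was 0.811 in wild-type (0.775 to 0.848) but 2.45 in Ucp1-KO (2.32 to 2.58). Both genes lie side by side on chromosome 7, and in each library the counting intervals of all 3 members were apart from each other.

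Levels of different genes are better compared per length. Per kilobase of canonical transcript (1676 bases for Ucp1, 4005 for Ucp2 and 2847 for Ucp3), wild-type had 197090 normalised counts of Ucp1, 2702 of Ucp3 and 1557 of Ucp2. Ucp1-KO had 25057 of Ucp1, 2683 of Ucp2 and 1542 of Ucp3. On this scale the Ucp1 level was 127 times that of Ucp2 in wild-type and 9.34 times in Ucp1-KO, and Ucp1 made up 97.9% and 85.6% of the sum. The length of Ucp2 is uncertain, since its 30 annotated transcripts run from 396 to 4424 bases and the annotation used for counting is not given. The length of Ucp3 is uncertain too, with 15 annotated transcripts of 1615 to 3852 bases. With Ucp3 held at 2847 bases, a counted Ucp2 transcript shorter than 2307 bases would put Ucp2 above Ucp3 in wild-type too. On the same Ucp3 length, Ucp2 was above Ucp3 in Ucp1-KO for any Ucp2 length up to 6967 bases. A shorter Ucp3 transcript would lower both limits, so the order per kilobase is not settled in either library.

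**Figure D3:**
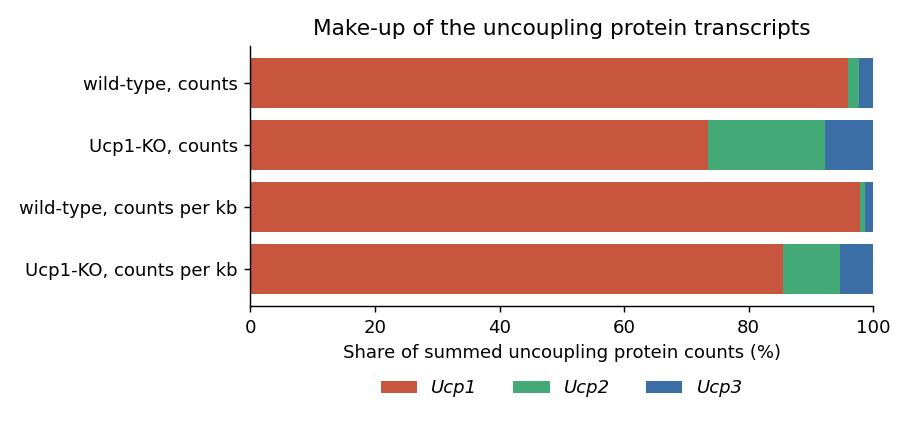
Share of the summed Ucp1, Ucp2 and Ucp3 counts that each gene takes (horizontal axis, percent), for each library on counts (upper 2 bars) and on counts per kilobase of canonical transcript (lower 2 bars). The Ucp1 part is 96.0% in wild-type and 73.5% in Ucp1-KO on counts, and 97.9% and 85.6% per kilobase.

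Whether the paralogs made up for the lower Ucp1 transcript was read from the amounts. The Ucp1-KO library had 288328 fewer normalised counts of Ucp1, 4508 more of Ucp2 and 3303 fewer of Ucp3. The Ucp2 excess was 1.56% of the Ucp1 deficit, or 0.654% per kilobase of canonical transcript. Ucp2 and Ucp3 together had 13929 normalised counts in wild-type, against 15134 in Ucp1-KO, for a log2 ratio of 0.12 (0.073 to 0.17), which reversed to -0.19 with total counts. The sum of all 3 genes was at 16.6% of wild-type, a log2 ratio of -2.59 (-2.61 to -2.57). At the level of RNA, the paralogs did not offset the Ucp1 deficit in these libraries, and protein and function were not measured.

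The direction of each member held under every scaling tried. The log2 ratio of Ucp1 ran from -3.28 with total counts to -2.89 with the reference genes of the study (Tbp, Hsp90ab1 and Gtf2b), and all values were below -2. Ucp2 ran from 0.48 to 0.87 and Ucp3 from -1.12 to -0.72 under the same 2 scalings. With total counts the median over all genes examined was at -0.31 on the log2 scale, and each member moved by about as much.

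**Figure D4:**
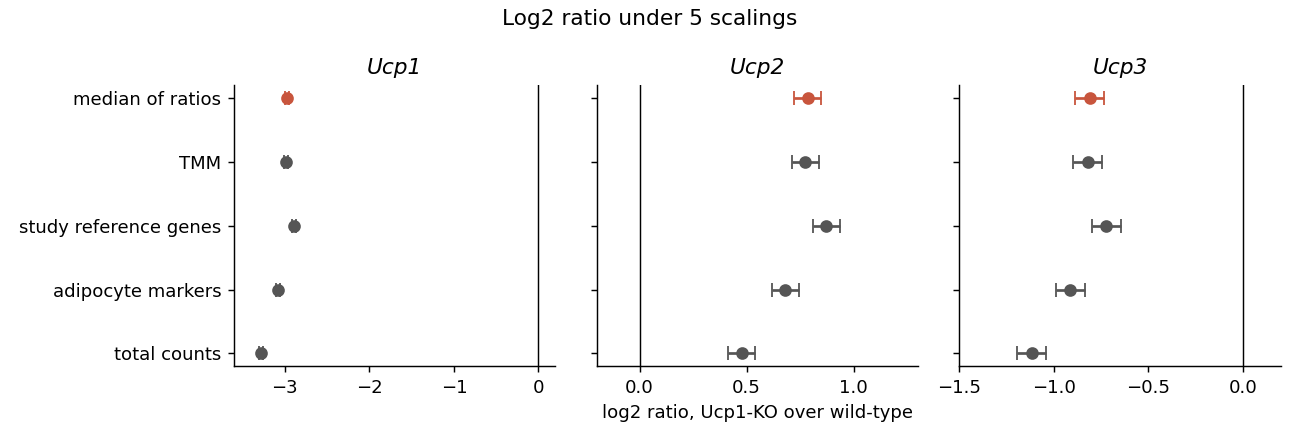
The log2 ratio of Ucp1-KO over wild-type (horizontal axes, each with its own range and a line at 0) of Ucp1, Ucp2 and Ucp3 under 5 scalings of the 2 libraries, with 95% counting intervals, median of ratios in red. No interval reaches 0: Ucp1 runs from -3.28 to -2.89, Ucp2 from 0.48 to 0.87 and Ucp3 from -1.12 to -0.72.

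The Ucp1 difference was also seen relative to sets of other transcripts of the same library. In bulk tissue, the transcripts of these sets need not come from the cells that hold Ucp1. Ucp1 had 26.4% as many counts as the 14 adipocyte markers together in wild-type but 3.12% in Ucp1-KO, a log2 difference of -3.08 (-3.10 to -3.06). Against the 18 brown adipocyte genes it was 90.4% and 10.4% (-3.12), and against 17 mitochondrial reference genes 34.8% and 3.78% (-3.20). Ucp2 was at 0.68, 0.64 and 0.56 on the log2 scale against the same 3 sets, and Ucp3 at -0.91, -0.95 and -1.04. The sets themselves had median log2 ratios of 0.25 (-0.06 with total counts), -0.09 (0.0019 with the reference genes of the study) and 0.21 (-0.09 with total counts), against -0.0016 for all genes examined.

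Markers of the other cell types in which the paralogs are known to be expressed were set beside them. For Ucp3 this is skeletal muscle. All 24 muscle markers examined of 25 were lower in Ucp1-KO, with a median log2 ratio of -2.61. At least 2-fold lower were 23 of them, against 9.55% of all genes examined. Pvalb (-3.92), Casq1 (-3.65) and Mylpf (-3.63) were furthest, and Acta1, skeletal actin, went from 76457 to 5916 counts. Ucp3 was thus lower together with muscle transcripts but by less, and their part in its difference was not tested.

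For Ucp2 the other cells are macrophages and further immune cells. Of the 18 macrophage markers, 13 were above 0 and 5 below, against 7592 and 7620 of the 15212 genes examined. By the 2-fold rule 6 were higher and none lower, against 7.42% and 9.55% of all genes examined. The markers had a median log2 ratio of 0.22 that ran from -0.08 to 0.31 over the scalings. Itgam (2.04), Ctss (1.33) and Cd68 (1.09) were the furthest of those with a mean of at least 100. With total counts and with the adipocyte markers 4 passed the 2-fold rule, without Cd68 and Msr1, which were at 0.78 and 0.72 with total counts. Csf1r (-0.01), Adgre1 (-0.21) and Mrc1 (0.25), which were picked outside the rule for named genes given below, were nearer to 0. Other markers picked outside it, Fcgr1 (1.76) and Lyz2 (0.81), were higher. The markers that changed sign with the scaling were Csf1r, Mrc1, C1qa, C1qb, Mertk and Siglec1. All of these were below 0 with total counts. None of the 18 markers was at 0 counts. The whole list took 0.0184% of counts in wild-type and 0.0194% for Ucp1-KO. Monocyte and neutrophil markers (8 of 10 examined, 2 higher and 2 lower by 2-fold), T cell markers (8 of 10, 3 and 3) and B cell markers (6 of 7, 1 and 0) were sparse, with Ccr2 (0.94) as the sole gene with a mean of 100 or more and each list at no more than 0.00111% of counts in either library. Their part in the Ucp2 difference was not tested.

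Endothelial and, by less, preadipocyte markers were mostly lower in the Ucp1-KO library. Of 12 endothelial markers 11 were below 0, with a median log2 ratio of -0.75, led by Emcn (-1.39), Egfl7 (-0.92) and Flt1 (-0.91). By the 2-fold rule 1 was lower, against 9.55% of all genes examined, but 7 with total counts and 3 with the adipocyte markers. Of 12 preadipocyte and fibroblast markers 11 were below 0, with a median of -0.19 that ran from -0.50 to -0.10 over the scalings. Dlk1 (-0.75), Ly6a (-0.68) and Lum (-0.49) were furthest, and Col3a1 and Dpp4 changed sign with the scaling. By the 2-fold rule 0 of the 12 were higher or lower (1 lower with total counts), against 17.0% of all genes examined in either direction. Adipocyte markers went both ways, with 9 of 14 above 0 and 5 below and a median of 0.25 (-0.06 with total counts). By the 2-fold rule 0 were higher and 1 lower, against 7.42% and 9.55% of all genes examined. With total counts and with the adipocyte markers as scaling 2 were lower. Furthest were Retn (-1.90) and Cfd (-0.92) downwards and Adipoq (0.84) upwards.

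The closest relatives of the uncoupling proteins by sequence or by proton conductance were examined for a like difference. Slc25a4 and Slc25a5 exchange ADP for ATP and are known to leak protons in the presence of fatty acids. Slc25a5 was counted 21356 times in wild-type, and 22360 times in the Ucp1-KO library, for a log2 ratio of 0.37 (0.33 to 0.40), and is X-linked in a comparison where sex-linked transcripts differ. Slc25a4 had 17631 and 15324 counts, for a log2 ratio of 0.10 that changed sign with total counts (-0.21) and with the adipocyte markers. Neither was near the 2-fold rule.

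The other carriers of this group were weakly expressed. Slc25a27, also called UCP4, had 370 and 154 counts, which gave -0.96 (-1.37 to -0.57). Slc25a30, a kidney-type relative, had 346 and 184 counts, which gave -0.61 (-0.99 to -0.24), and Slc25a14, also called UCP5 and X-linked, had 163 and 150 (0.18, -0.29 to 0.65), with a change of sign with total counts. Slc25a31 had 0 and 7 counts and was left out as too low. The counting interval of its log2 ratio reached down to -0.60 and had no upper limit. In all, 0 of the 5 carriers examined passed the 2-fold rule in either direction, against 17.0% of all genes examined. With 5 genes, 0 cannot be told from that share. Slc25a27 passed the rule downwards with total counts (-1.27) and with the adipocyte markers. The median of the 5 carriers was 0.10, between -0.21 and 0.18 over the scalings.

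Against 9.55% of all genes examined, 2 of 6 metabolite carriers of the same family were at least 2-fold lower. These were the dicarboxylate carrier Slc25a10 (1467 and 441 counts, log2 ratio -1.43) and the aspartate-glutamate carrier Slc25a12 (1041 and 394, -1.10). The phosphate carrier Slc25a3 was at -0.63, the oxoglutarate carrier Slc25a11 at 0.29, which changed sign with total counts, and the carnitine carrier Slc25a20 at 0.48. Slc25a13 had 22 counts in each library. In contrast, the 17 mitochondrial reference genes, among them subunits of the respiratory chain and of import complexes, ran only from -0.20 to 0.52, with Cs (0.52), Tomm40 (0.46) and Timm23 (0.42) furthest.

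Of the genes near the members that were examined, all but Dnajb13 were nearer to 0 than the member they lie next to. Coa4 and Mrpl48, which lie 35050 and 43711 bases after Ucp2, were not on the list. The neighbours of Ucp1, Tbc1d9 (664 and 678 counts, log2 ratio 0.33) and Elmod2 (2078 and 1928, 0.19), lie 17078 bases before and 14174 bases after it, and Elmod2 changed sign with total counts. C2cd3, 2769 bases before Ucp3, had 876 and 578 counts, or -0.30 on the log2 scale (-0.52 to -0.08). Ppme1, which lies 100621 bases before Ucp3, was at 0.04 and changed sign with total counts and with the adipocyte markers. Paaf1 was not among the symbols of the table. Dnajb13, which overlaps the end of Ucp2 on the opposite strand, had 46 and 130 counts, or 1.79 on the log2 scale (1.09 to 2.55). Also on the opposite strand, the long non-coding RNA gene Gm72028 overlaps Ucp2 and Ucp3, and Gm10603 overlaps Ucp3. Neither was on the list. The libraries keep strand, but whether strand was used in counting is not given. Reads of Ucp2 and Ucp3 may thus not be fully separated from those of the genes that overlap them. Reads in the overlaps were not counted here.

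The signal that drives Ucp1 was compared along its known path, from the adrenergic receptor through cyclic AMP to transcription factors. Adrb3, the main beta-adrenergic receptor of brown adipocytes, had 6968 counts in wild-type but 2681 in Ucp1-KO, for a log2 ratio of -1.08 (-1.17 to -0.99), or -0.99 with the reference genes of the study. The adenylyl cyclase Adcy3 (2555 and 6132, 1.56) was higher. Of the 12 genes of this step, 2 were at least 2-fold higher and 1 lower, against 7.42% and 9.55% of all genes examined. Their median was 0.23. With total counts 1 was higher and the median was -0.08, and with the reference genes of the study 0 were lower.

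Activators of Ucp1 transcription were higher or little different in most cases. Of 17 examined, 4 passed the 2-fold rule upwards (3 to 5 over the scalings) and 1 downwards (2 with total counts). Among all genes examined 7.42% passed it upwards and 9.55% downwards. The median log2 ratio of the activators was 0.32 and ran from 0.02 to 0.41 over the scalings. Dio2, which makes active thyroid hormone within the brown adipocyte, had 12330 and 48488 counts, for a log2 ratio of 2.28 (2.23 to 2.32). Ppargc1a, a coactivator of mitochondrial and thermogenic genes, had 4105 and 12332 (1.89, 1.81 to 1.96), and Prdm16, a factor of brown adipocyte identity, had 1216 and 2586 (1.39, 1.25 to 1.53). Irf4, which acts with Ppargc1a at thermogenic genes, had 1735 and 356 (-1.98, -2.23 to -1.75). Of the 9 factors known to lower Ucp1, 0 passed the 2-fold rule in either direction, against 17.0% of all genes examined. With 9 genes, 0 cannot be told from that share. Nrip1 (0.87), Ncor1 (0.60) and Rbl1 (-0.49) were furthest.

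The brown adipocyte genes that usually accompany Ucp1 were mostly nearer to 0. Of 18 such genes, 3 were at least 2-fold higher and 2 lower, against 7.42% and 9.55% of all genes examined. Their median was -0.09 and ran from -0.39 to 0.0019 over the scalings. The lower genes were Acot11 (-1.32, an acyl-CoA thioesterase) and Elovl6 (-1.05, a fatty acid elongase), and with the reference genes of the study Elovl6 was at -0.96, within 2-fold, and 4 genes were higher. Slc27a2 (2.94, a fatty acid transporter and acyl-CoA synthetase), Elovl3 (2.52, a fatty acid elongase) and Fabp3 (1.72, a fatty acid binding protein) were the furthest upwards. Cidea, a lipid droplet protein and brown fat marker, had 89838 and 102812 counts (0.49), and Cox8b, a cytochrome oxidase subunit, had 39739 and 26165 (-0.30). Acot11, Elovl6, Cidea and Cox8b were chosen after their values were seen.

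Routes of heat production that do not need UCP1 gave differences in both directions. Of 17 genes examined, 2 passed the 2-fold rule upwards and 3 downwards, against 7.42% and 9.55% of all genes examined. Their median log2 ratio was 0.35 and ran from 0.04 to 0.44 over the scalings. The 3 lower genes, Ckmt2 (-3.09, a mitochondrial creatine kinase), Atp2a1 (-2.00, a calcium pump) and Ryr1 (-1.62, a calcium channel), are known from skeletal muscle, and Atp2a1 and Ryr1 are also among the muscle markers. The higher genes were the creatine transporter Slc6a8 (1.12, but 0.82 and so within 2-fold with total counts), which is X-linked, and Ryr2 (1.35, from 73 and 152 counts), both chosen after their values were seen.

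Genes of fatty acid oxidation are known to move with Ucp3 in muscle and brown fat. Most did not go its way with median-of-ratios factors. Of 16 examined, 14 were above 0, against 7592 of the 15212 genes examined. Acadm, Acadvl, Cpt1a, Hadha, Hadhb and Cd36 changed sign with the scaling and were below 0 with total counts. By the 2-fold rule 3 were higher and 0 lower, against 7.42% and 9.55% of all genes examined. Acot2 (2.43, a mitochondrial acyl-CoA thioesterase) and Fabp3 (1.72) were among the 3 higher genes. The list median was 0.33, or 0.02 with total counts, against -0.81 and -1.12 for Ucp3.

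**Figure D5:**
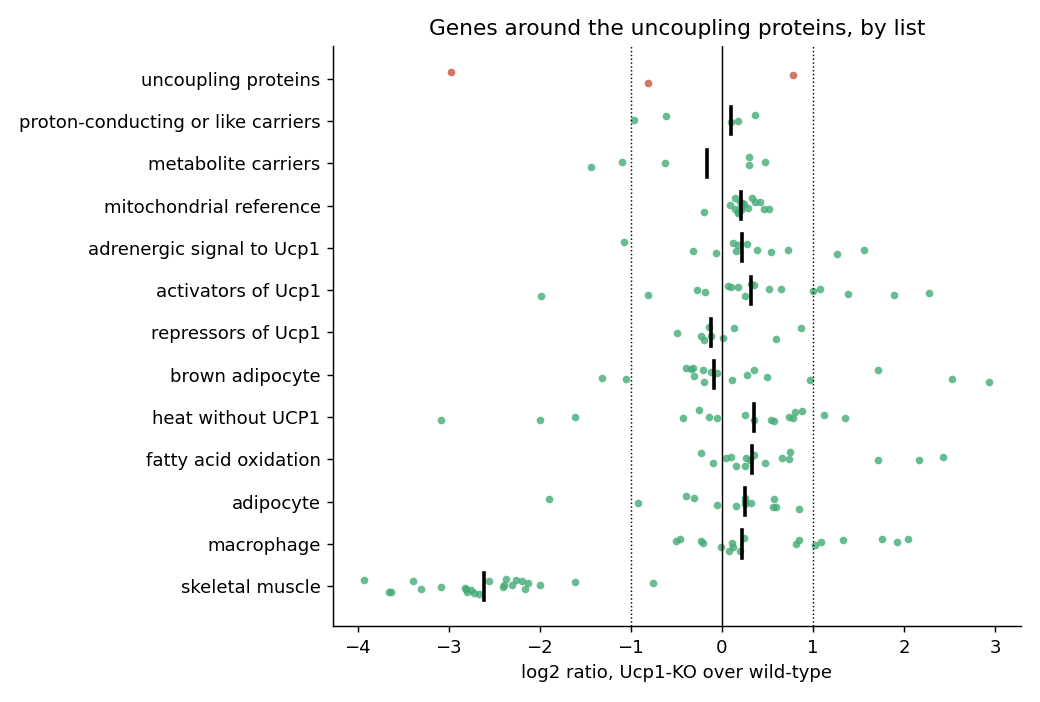
The log2 ratio of Ucp1-KO over wild-type (horizontal axis) of the genes in 13 lists, 1 point per gene whose mean normalised count reached 10, with the list median as a black bar (none for the uncoupling proteins, in red) and the 2-fold rule as dotted lines. Ucp1 at -2.98 lies among the values of the skeletal muscle markers (median -2.61) and far from those of the mitochondrial reference genes (median 0.21).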

How the data were processed

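The deposited tables hold whole-number counts of reads per gene, which the authors made with featureCounts, not normalised. Per the submitters' processing notes, reads were trimmed with Trim Galore and aligned with HISAT2 to mm39, the build GRCm39. The libraries were poly-A enriched and directional. The annotation and the strand and multi-mapping settings of the counting are not given in the sources used here.

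Each table was divided by its DESeq2 size factor (version 1.42.0, R 4.3.3; median of ratios), 1.11 for wild-type and 0.901 for Ucp1-KO. A gene was examined when its mean normalised count reached 10, with a size rule of 2-fold. Because 70.7% and 73.4% of counts from 1 to 10 were even, as when both mates of a pair are counted, exact 95% intervals (Poisson for a count, conditional binomial for a ratio, binomial for a share) were computed on counts divided by 2. These intervals cover counting error alone, as PCR copies were not marked by molecular identifiers. With 1 library per genotype no test was made, and p-values are not given.

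The members and lists were chosen with earlier results of these data known. Lists are described by counts and medians. The rule for named genes took every gene of the lists holding no more than 6, Adrb3, Ppargc1a, Prdm16, Dio2, up to 3 genes of each longer list with the largest log2 ratio in size at a mean of at least 100, the 3 genes of nearest log2 ratio to each member, and the next genes by count in each library. Some genes that this rule took are not reported here. Positions and lengths are from GENCODE mouse release M39, joined by symbol, which matched 97.1% of the genes examined, and promoters from RefSeq. Ratios and intervals were checked on simulated data. The simulated counts followed the counting model of the intervals, so this checks the computation and not the fit of that model to these libraries. Alternatives were TMM (edgeR 4.0.16), total counts, the reference genes of the study, adipocyte markers, a pseudocount of 5, intervals on counts as deposited, and other minimum counts.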

Additional observations from a re-analysis of the deposited data

How the results depend on the processing

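No paired analysis was possible because there is a single library of each genotype, and no library could be left out. TMM factors, a pseudocount of 5 and intervals on the counts as deposited kept Ucp1, Ucp2, Ucp3 and their sum within their counting intervals. Other scalings moved them without a change of direction. With total counts the log2 ratios were -3.28 for Ucp1, 0.48 for Ucp2, -1.12 for Ucp3 and -2.90 for the sum. With the reference genes of the study they were -2.89, 0.87, -0.72 and -2.50, and with the adipocyte markers -3.08, 0.68, -0.91 and -2.69. Ucp2 and Ucp3 together, an alternative added after seeing the data, reversed from 0.12 to -0.19 with total counts and were at 0.21 and 0.016 with the other 2. The 2-fold calls of each list were recomputed under the other scalings, also after seeing the data, and changes for the main lists stand beside them. Total counts shift all genes by construction, to a median of -0.31.

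Per kilobase of canonical transcript, the Ucp1 share of the sum was 97.9% in wild-type and 85.6% in Ucp1-KO. Relative to brown adipocyte genes the Ucp1 log2 difference was -3.12 and relative to mitochondrial reference genes -3.20. The genes at least 2-fold higher and lower were 1128 and 1453, and 732 and 2320 with total counts, 2187 and 2844 with no minimum count, and 617 and 811 with a minimum of 50, by construction of the filter. Depth was not the limit for the 3 members, but it limits Slc25a13, Slc25a14 and Slc25a31.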
